A study of Mus musculus with 6 samples.

Results

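The surface proteins by which group 2 innate lymphoid cells (ILC2s) are recognised and sorted were followed at the level of their transcripts in ILC2s cultured with an agonistic antibody to GITR. The genes were Klrg1, Thy1, Ptprc, Kit, Ly6a, Cd5, Cd200r1, Cd48 and Epcam, 9 of the 53278 genes of the table, each found by its gene symbol. The cells came from visceral adipose tissue of C57BL/6 mice aged 8 weeks that had received 3 intraperitoneal injections of 1 µg IL-33. After sorting they were kept for 48 h in IL-2 (10 ng/mL) and IL-7 (10 ng/mL), together with either DTA-1 (5 µg/mL), the GITR agonist, or an isotype control, a rat IgG2b antibody. There were 3 libraries of each kind, each made from 10 ng of RNA and sequenced on a NextSeq 500. The culture time is that of the labels, and the study's text is not uniform on it. The column headers of the control libraries read PBS-GITR, while their sample titles read Isotype, and the titles and the study's text were followed. On that reading both groups share the IL-33 treatment of the mice, the sort and the cytokines, and differ in the antibody. Whether the 3 libraries of a group came from separate mice or cultures is not stated, so p-values measure only the spread between these libraries.

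ILC2s are tissue lymphocytes without a clonal antigen receptor, and they carry no single surface protein that marks them alone. They are found by the absence of lineage proteins together with pan-leukocyte and cytokine receptors, and subsets are told apart by molecules such as KLRG1, c-KIT and SCA-1. The sort gate of the study's methods required CD45 (encoded by Ptprc), ST2 (Il1rl1) and CD117 (Kit) on cells without lineage proteins. These were CD3ε and TCRγδ of T cells, the B cell form CD45R and the erythroid Ter119. The myeloid proteins CD11b, CD11c and Gr-1 and the mast cell receptor FcεRI were also excluded. The study's results and figures give CD45, ST2 and the IL-7 receptor instead, without CD117. The presence of Ptprc transcripts was thus set by the sort and is not a result. The same holds for Kit under the gate of the methods. All 12 genes of a list of ILC2 markers passed the filter on low counts, among them Gata3 and Il1rl1. The normalized count of Il1rl1 lay between 1022 and 1286 in the 6 libraries.

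For 5 of the 9 genes a stretch upstream of the start site was at hand from RefSeq (GRCm38.p6), and the 250 bases before the outermost start in that table were searched on both strands for GATAA, a core of the sites of GATA factors such as the ILC2 regulator GATA3, and for the NF-κB consensus. Epcam is shown as the member with the largest fold change, and Kit and Cd48 because their values followed each other most closely over the libraries. Sequences run 5′ to 3′ in lower case, and capitals mark the 1 match, which is GATAA on the opposite strand.
Epcam (chr17:87635729-87635978, plus strand): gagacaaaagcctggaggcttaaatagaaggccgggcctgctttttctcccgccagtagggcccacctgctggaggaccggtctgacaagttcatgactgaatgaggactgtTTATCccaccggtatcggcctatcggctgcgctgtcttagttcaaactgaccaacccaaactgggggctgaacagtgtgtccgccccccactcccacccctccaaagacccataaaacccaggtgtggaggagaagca
Kit (chr5:75574737-75574986, plus strand): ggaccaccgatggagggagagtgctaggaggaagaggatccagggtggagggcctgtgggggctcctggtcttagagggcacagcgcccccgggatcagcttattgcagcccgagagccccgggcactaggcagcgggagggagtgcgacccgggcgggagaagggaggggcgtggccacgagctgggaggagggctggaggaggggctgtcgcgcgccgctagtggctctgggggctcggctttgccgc
Cd48 (chr1:171681742-171681991, plus strand): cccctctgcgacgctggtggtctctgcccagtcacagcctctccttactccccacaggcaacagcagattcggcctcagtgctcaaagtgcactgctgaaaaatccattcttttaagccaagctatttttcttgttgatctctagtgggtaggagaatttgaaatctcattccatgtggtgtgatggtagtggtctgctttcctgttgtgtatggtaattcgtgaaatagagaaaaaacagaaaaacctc
The RefSeq starts used for Kit and Ptprc lie inside the bounds of the genes in the count table, so these 2 windows reach into the genes. The match was in Epcam, and the windows of Kit, Cd48, Ptprc and Cd5 held neither motif. Among 27025 promoter windows of the same length 23% held GATAA and 7.03% the NF-κB consensus. A match of letters is a description and not a binding site, and no binding was measured here.

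The total count was 34557215 to 35131329 per library with isotype control and 30569351 to 32492849 with DTA-1. Normalized counts are given as CPM, counts scaled to a common library size after TMM normalization. A gene listed at 0 may hold as many as 3 counts, which is 0.0854 to 0.0981 CPM by counting error alone. The library labelled DTA-1 replicate 1 stood apart from its group. The chi-square distance of counts per degree of freedom was 9.64 to 11.3 from it to the isotype control libraries, but 27.1 and 28.2 to DTA-1 replicates 2 and 3. Those replicates lay 11.4 from each other, and the isotype control libraries 11.4 to 17 from each other. Each tested member is therefore given with this library and, in what is called the 5-library fit, without it. DTA-1 replicate 1 was left out because of its likeness to the isotype control libraries. Leaving out such a library can widen the group difference and narrow the spread. The p-values of the 5-library fit are thus likely too small and are given as a description. Leaving out any other single library gave 0 called genes. For other genes the 5-library fit is given where stated. Of the 12 ILC2 markers 6 were higher and 6 lower with DTA-1 and 0 were called by edgeR. An unadjusted p under 0.05 was reached by 5 of them, beside 7.22% of all genes tested. Of the 12 markers 3 were called in the 5-library fit, beside 0.744% of all genes tested in that fit. The cytokine genes Il5 and Areg rose by 0.80 and 0.75 on the log2 scale (edgeR adjusted p = 0.000115 and 0.000163), and the costimulatory receptor gene Icos fell by 0.71 (edgeR adjusted p = 0.00129).

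Transcripts of the surface markers differed little between DTA-1 and isotype control, and none passed the test. Epcam was 1.31-fold lower with DTA-1 and Ly6a was 1.19-fold higher, and these were the only members with an unadjusted p under 0.05. Of the 8 members that passed the filter 1 had a higher and 7 a lower mean with DTA-1, with a median log2 fold change of −0.06 beside −0.01 over all 14361 genes tested. A gene was called where edgeR's quasi-likelihood test gave an adjusted p under 0.05 together with 1.5-fold or more, and 0 members were called, beside 0% of all genes tested. DESeq2's Wald test and limma-trend also called 0 members. With an unadjusted p and the 1.5-fold limit the count was again 0, beside 337 of all genes tested (2.35%). At an unadjusted p with no fold limit it was 2 of 8, beside 1037 of all genes (7.22%). The smallest adjusted p of a member was 0.627. For 6 of the 8 the 95% interval of the change lay within 1.5-fold in either direction, the exceptions being Kit and Epcam.

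In the 5-library fit Epcam passed the test and was the 1 member to do so, beside 111 of 14911 genes tested (0.744%), of which 24 were lower (0.161%). An adjusted p under 0.05 with no fold limit was reached by 2 members, Epcam and Ly6a, beside 253 of all genes (1.7%). DTA-1 replicates 2 and 3 both lay below every isotype control library for Thy1, Kit, Cd200r1, Cd48 and Epcam. This is 5 of 8 members, beside 16.1% of all genes. The 5 genes do not count as independent, as Pearson's r over the libraries was 0.986 for Kit and Cd48 and 0.922 for Thy1 and Epcam. Some gaps were small: Cd200r1 had 420 CPM in DTA-1 replicate 2 and 425 in the lowest isotype control library. DTA-1 replicates 2 and 3 both lay above for Ly6a, beside 15.6% of all genes. The library labelled DTA-1 replicate 1 lay inside the range of the isotype control libraries for 6 of the 8. The share of all genes for which this held was not counted, so it is not read as a trait of the members. Without DTA-1 replicate 1 the median log2 fold change of the members was −0.13, beside −0.02 for all genes.

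**Figure D1:**
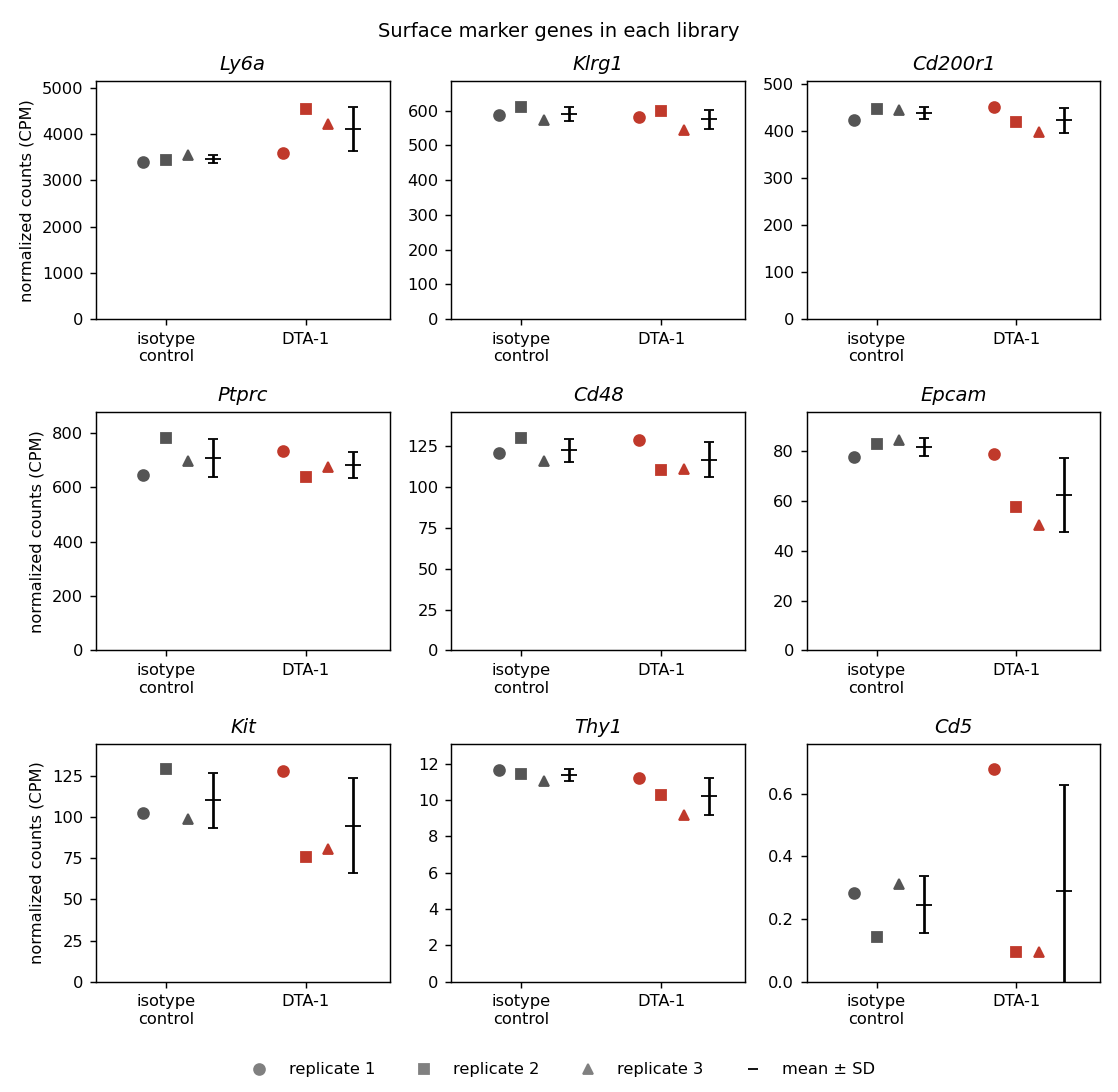
Normalized counts (CPM, vertical axis, from 0) of the 9 genes in each library, grey for isotype control and red for DTA-1, with circles, squares and triangles for replicates 1, 2 and 3 and black bars for the mean ± SD of 3 libraries. In Epcam and Kit the squares and triangles of DTA-1 lie below all grey points while the circle does not, and in Ly6a all red points lie above the grey ones. The lower bar of Cd5 in DTA-1 would pass below 0 and is drawn to the axis.

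Ptprc, which encodes the tyrosine phosphatase CD45 of all nucleated blood cells (chr1:138062861-138175708 of mm10, minus strand), had 645, 782 and 698 CPM in replicates 1, 2 and 3 of the isotype group and 734, 639 and 675 CPM in those of the DTA-1 group. The groups overlapped, and the highest library was an isotype control. Ptprc had a log2 fold change of −0.05 (SE, standard error, 0.08, 95% interval −0.23 to 0.12, edgeR adjusted p = 0.921). Its sign depended on isotype control replicate 2, without which it was 0.02. A noncoding gene, A130071D04Rik, lies within the bounds of Ptprc on the same strand without sharing exon bases, and it had a mean of 151 counts.

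CD45 keeps Src-family kinases ready for signalling. All 7 genes of a list of that axis were tested, 1 higher and 6 lower with DTA-1, and 0 passed the test, with a median log2 fold change of −0.06. Fyn, a Src-family kinase, had 184, 184 and 185 CPM with isotype control and 173, 174 and 171 with DTA-1. All DTA-1 libraries of Fyn were below all isotype control libraries, as they were for 6.04% of all genes tested, with a small difference in level (log2 fold change −0.10, SE 0.06, edgeR adjusted p = 0.746). Ptprcap, the CD45-associated protein gene, had 204 ± 11.7 CPM with isotype control and 197 ± 18.1 with DTA-1 (SD, n = 3 each), and Lyn, another Src-family kinase, had 98.4 ± 1.57 and 92.1 ± 8.18.

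Kit, the receptor tyrosine kinase for stem cell factor (chr5:75574916-75656722, plus strand), had 102, 129 and 98.8 CPM with isotype control and 128, 75.8 and 80.8 with DTA-1. DTA-1 replicates 2 and 3 were below every isotype control library, and DTA-1 replicate 1 was close to the highest of them. Kit had the widest relative spread of the tested members in isotype control, with a coefficient of variation of 15.1%, and in DTA-1, with 30.3%. For Kit the log2 fold change was −0.22 (SE 0.18, 95% interval −0.61 to 0.18, edgeR adjusted p = 0.831). In the 5-library fit it was −0.49 (SE 0.12, 95% interval −0.75 to −0.23, edgeR adjusted p = 0.0789), and it did not pass the test. Without DTA-1 replicate 2 it was −0.07.

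The ligand gene Kitl, named after its values were seen, had 15.2, 21.5 and 16.8 CPM with isotype control and 21.7, 10.4 and 13.5 with DTA-1. Its libraries were ordered much as those of Kit, with isotype control replicate 2 and DTA-1 replicate 1 highest and DTA-1 replicates 2 and 3 lowest. The log2 fold change of Kitl was −0.23 (SE 0.24, edgeR adjusted p = 0.869). ST2, required by both descriptions of the gate, is the receptor for IL-33. Its gene Il1rl1 had 1096, 1277 and 1161 CPM with isotype control and 1286, 1022 and 1022 with DTA-1, with a log2 fold change of −0.09 (SE 0.09, edgeR adjusted p = 0.88). All 3 genes whose proteins the gate of the methods required thus had DTA-1 replicate 1 in the upper part of the isotype control range or above it. Their groups overlapped.

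Genes that carry signals from KIT were split in direction. All 10 genes of that list were tested, 6 higher and 4 lower, with a median log2 fold change of 0.05 and 0 that passed the test. Cblb, a ubiquitin ligase that limits such signals, had 32.1 ± 6.17 CPM with isotype control and 38.3 ± 7.44 with DTA-1 (SD, n = 3 each), and the adaptor Sh2b3 had 72.6 ± 1.25 and 79.1 ± 7.2. The adaptor Grb2 and the phosphoinositide kinase subunit Pik3cd, the most abundant of the list, had log2 fold changes of 0.07 and −0.07. Mast cells also carry KIT. Of a list of 9 mast cell and basophil markers 7 were tested, 5 higher and 2 lower, none was at 0 in all libraries, and their summed normalized count was 39.5 to 60.2 CPM with isotype control and 55.5 to 83.0 with DTA-1. The mast cell protease genes Cpa3 and Cma1 rose in the 5-library fit (log2 fold changes 1.33 and 1.49, edgeR adjusted p = 0.0391 and 0.0096). These were 2 called of 7 tested, beside 0.744% of all genes tested in that fit. Tpsb2, Fcer1a and Hdc had log2 fold changes of 0.36, 0.84 and 0.16 there, and Mcpt8 and Cd200r3 of −0.94 and −0.35. The part of such cells in the level of Kit was not tested, and in RNA from bulk cells fewer cells of a type and less RNA per cell cannot be told apart.

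Klrg1, an inhibitory lectin-like receptor for cadherins (chr6:122270596-122282882, minus strand), had 588, 612 and 572 CPM with isotype control and 581, 600 and 544 with DTA-1. The groups overlapped, with DTA-1 replicate 3 below and isotype control replicate 2 above every library of the other group. Klrg1 had a log2 fold change of −0.04 (SE 0.06, 95% interval −0.18 to 0.10, edgeR adjusted p = 0.923), and in the 5-library fit it was −0.05 (edgeR adjusted p = 0.802). With all libraries the interval leaves out a change of 1.5-fold in either direction. Of 20 other killer cell lectin-like receptor genes, which are used by natural killer cells, 16 had a count of 0 in all libraries and 2 were tested. Klrb1b had 4.13, 3.51 and 4.40 CPM with isotype control and 3.94, 2.5 and 2.54 with DTA-1, and Klrg2 was under 1 in every library. The natural killer cell markers Ncr1 and Klrb1c were at 0 throughout, and the summed level of the 6 genes of that list was 1.36 to 4.0 CPM with isotype control and 1.97 to 4.55 with DTA-1. Klrg1 was thus far above each of the other listed genes of its receptor group in these cells.

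Cd200r1, an inhibitory receptor for CD200 (chr16:44765736-44794978, plus strand), had 425, 448 and 446 CPM with isotype control and 451, 420 and 398 with DTA-1. DTA-1 replicate 1 was the highest library and DTA-1 replicates 2 and 3 were the lowest. For Cd200r1 the log2 fold change was −0.05 (SE 0.06, 95% interval −0.20 to 0.09, edgeR adjusted p = 0.895), and −0.10 in the 5-library fit (edgeR adjusted p = 0.47). Of 6 close relatives of Cd200r1, Cd5 and Epcam 4 were tested, 1 higher and 3 lower, with a median log2 fold change of −0.11, and all were far below Cd200r1. Cd200r4 had 21, 21.5 and 21.2 CPM with isotype control and 19.7, 16.7 and 19.4 with DTA-1, and Cd200r3, a gene of mast cells and basophils, had 11.2 ± 0.762 and 11.0 ± 3.84 (SD, n = 3 each). The deposited values of Cd200r1, Ptprc, Kit and Cd48 were not whole numbers in every library, as estimated counts can be where reads match more than a single feature.

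Cd5, an inhibitory scavenger receptor of T cells and some B cells (chr19:10718143-10738974, minus strand), was nearly absent. Its counts were 10, 5 and 11 with isotype control against 21, 3 and 3 with DTA-1, and it was removed by the filter and was not tested. Its relative Cd6 was also low, at 0, 2.57 and 0.964 CPM with isotype control and 2.30, 1.6 and 3.17 with DTA-1. Of 10 T cell markers 8 were tested, 1 higher and 7 lower, and Cd8a was at 0 in all libraries. Their summed level was 254 to 295 CPM with isotype control and 226 to 284 with DTA-1. Most of it was from Trbc2, a T cell receptor constant gene, at 182 ± 14.0 and 162 ± 26.3 (SD, n = 3 each). Cd3g had 44.3 ± 7.05 and 43.8 ± 2.03 and Trbc1 41.7 ± 1.30 and 38.4 ± 1.62, while Cd3e had 3.02 ± 0.648 and 2.96 ± 0.656. Of the lineage genes that the gate excluded, Tcrg-C1, a γ chain constant gene, had 375, 324 and 323 CPM with isotype control and 322, 259 and 242 with DTA-1. Tcrg-C2, another such gene, had 1.41 ± 0.922 and 0.634 ± 0.124 CPM (SD, n = 3 each). Of 8 genes of that kind 6 were tested, 3 higher and 3 lower. The part of T cells in the levels of Cd5 and Thy1 was not tested.

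Phosphatases and adaptors that inhibitory receptors recruit were described as a list of 7 genes, all tested, with 2 higher, 5 lower and 0 that passed the test (median log2 fold change −0.03). Inpp5d, the phosphatase SHIP-1, had 260 ± 24.3 CPM with isotype control and 286 ± 28.5 with DTA-1, and Dok2, an adaptor of CD200R1, had 354 ± 14.2 and 343 ± 9.96 (SD, n = 3 each). Neither passed the test (edgeR adjusted p = 0.764 and 0.911).

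Ly6a, which encodes SCA-1, a small protein held to the membrane by a glycosylphosphatidylinositol (GPI) anchor (chr15:74994877-74998031, minus strand), had 3392, 3446 and 3555 CPM with isotype control and 3583, 4534 and 4217 with DTA-1. All DTA-1 libraries were above all isotype control libraries, which held for 5.29% of all genes tested, but DTA-1 replicate 1 exceeded the highest of them only narrowly. Ly6a took 0.342% to 0.439% of all counts of a library. The log2 fold change was 0.25 (SE 0.08, 95% interval 0.07 to 0.43, unadjusted p = 0.0114, adjusted p = 0.627 by edgeR). In the 5-library fit it was 0.34 (SE 0.05, 95% interval 0.23 to 0.45, edgeR adjusted p = 0.0096), 1.26-fold higher and short of the 1.5-fold limit. Leaving out DTA-1 replicate 2 instead gave 0.18.

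The relatives of Ly6a with the smallest p were Ly6e and Ly6c1. Ly6e, a GPI-anchored gene expressed in many lymphocytes, had 2639, 2520 and 2580 CPM with isotype control and 2622, 3184 and 3230 with DTA-1. Ly6c1 had 18.4, 20.7 and 17.8 CPM with isotype control and 20.0, 26.6 and 25.0 with DTA-1. In both genes DTA-1 replicates 2 and 3 were above every isotype control library and DTA-1 replicate 1 was within their range. The log2 fold changes were 0.22 (SE 0.08) and 0.33 (SE 0.14), with edgeR adjusted p = 0.632 and 0.657, and in the 5-library fit they were 0.31 and 0.44 (edgeR adjusted p = 0.00908 and 0.139), both short of 1.5-fold. Of the 14 relatives 5 were tested, 3 higher and 2 lower, with a median log2 fold change of 0.19, and 4 had a count of 0 in all libraries. SCA-1 is also abundant on fibroblasts and adipocyte progenitors. Of 9 markers of these 5 were tested and all 5 were lower with DTA-1, with a summed normalized count of 11.9 to 14.7 CPM with isotype control and 6.05 to 9.91 with DTA-1. Pdgfra, a defining marker, had 1.92, 0.399 and 0.709 CPM with isotype control and 0 in every DTA-1 library. In the 5-library fit Pdgfra (edgeR adjusted p = 0.0481) and the collagen gene Col1a1, which fell by 3.17 on the log2 scale (edgeR adjusted p = 0.0325), were called lower. These were 2 of 5 tested, beside 0.161% of all genes called lower in that fit. Col1a1 had at most 1.93 CPM in any library. Dpp4, with the highest mean of the list and the largest part of its sum in each library, had 7.43, 9.67 and 6.24 CPM with isotype control and 5.08, 6.41 and 5.77 with DTA-1. Col3a1 had a log2 fold change of −0.08 in the 5-library fit. Of the untested markers, all under 1 CPM, Pi16 and Pdgfrb had a higher mean with DTA-1, and Dcn and Lum a lower mean. The part of such cells in the level of Ly6a was not tested.

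Thy1, a GPI-anchored protein of T cells and ILCs (chr9:44043384-44048579, plus strand), had 11.7, 11.4 and 11.0 CPM with isotype control and 11.2, 10.3 and 9.16 with DTA-1. DTA-1 replicates 2 and 3 were below every isotype control library, by small steps. For Thy1 the log2 fold change was −0.16 (SE 0.15, 95% interval −0.49 to 0.18, edgeR adjusted p = 0.859), and −0.23 in the 5-library fit (edgeR adjusted p = 0.591). The integrin subunit genes Itgav and Itgb3, which encode a binding partner of THY1, had 77.0 ± 15 and 353 ± 25.5 CPM with isotype control and 91.2 ± 9.47 and 325 ± 7.76 with DTA-1 (SD, n = 3 each). Neither passed the test, with edgeR adjusted p = 0.738 and 0.738.

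Cd48, a GPI-anchored adhesion protein of the SLAM family and the ligand of CD2 and CD244 (chr1:171682009-171705258, plus strand), had 121, 130 and 116 CPM with isotype control and 129, 110 and 111 with DTA-1. DTA-1 replicates 2 and 3 were below every isotype control library and DTA-1 replicate 1 was near the highest. For Cd48 the log2 fold change was −0.07 (SE 0.08, 95% interval −0.25 to 0.11, edgeR adjusted p = 0.891), and −0.15 in the 5-library fit (edgeR adjusted p = 0.413). Cd2 had 1.44, 0.969 and 2.41 CPM with isotype control and 2.75, 3.11 and 2.01 with DTA-1, and Cd244 was under 1 in every library and was not tested. Of the 12 other genes of the SLAM family and its adaptors 4 were tested, 1 higher and 3 lower, with a median log2 fold change of −0.14.

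Ly9, a SLAM receptor that binds itself between cells, had 38.4, 39.6 and 37.4 CPM with isotype control and 39.0, 24.3 and 20.8 with DTA-1. The level was low in DTA-1 replicates 2 and 3 and that of DTA-1 replicate 1 was among the isotype control libraries. With all libraries the log2 fold change of Ly9 was −0.46 (SE 0.19, edgeR adjusted p = 0.657). In the 5-library fit it fell by 0.77 on the log2 scale (SE 0.11, edgeR adjusted p = 0.0096), and Ly9 was the 1 called gene of the 9 lists of partners, relatives and pathway genes. Cd84, the most abundant SLAM receptor, had 121 ± 11.7 CPM with isotype control and 119 ± 3.76 with DTA-1 (SD, n = 3 each).

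Assembly of the GPI anchor, which Ly6a, Thy1 and Cd48 products need to stay at the surface, was covered by 28 genes, all tested, with 11 higher, 17 lower and a median log2 fold change of −0.04. None passed the edgeR test, and 3 of the 28 had an unadjusted p under 0.05, beside 7.22% of all genes tested. Pigo, an ethanolamine phosphate transferase, had 49.9, 57.7 and 55.5 CPM with isotype control and 39.0, 45.7 and 40.2 with DTA-1. Pigc, a part of the enzyme of the first step, had 26.8, 28.8 and 28.5 CPM with isotype control and 21, 22.2 and 19.9 with DTA-1. For both genes all DTA-1 libraries, DTA-1 replicate 1 included, were below all isotype control libraries. The same held for Pign of this list, and for 6.04% of all genes tested. The log2 fold changes were −0.39 and −0.42 (SE 0.10 and 0.11), each with edgeR adjusted p = 0.627. Pigb, a mannosyltransferase named after its values were seen, was the third gene with an unadjusted p under 0.05 and had the other direction. Its log2 fold change was 0.32 (SE 0.12, edgeR adjusted p = 0.632). All DTA-1 libraries of Pigb were above all isotype control libraries, which held for 5.29% of all genes tested. The most abundant genes of the list, Pigs and Gpaa1 of the transamidase that attaches the anchor, had 191 ± 4.14 and 146 ± 7.99 CPM with isotype control and 199 ± 13.7 and 152 ± 12.1 with DTA-1 (SD, n = 3 each).

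Epcam, an adhesion protein of epithelia that also occurs on some lymphocytes (chr17:87635979-87651106, plus strand), had 77.5, 82.8 and 84.4 CPM with isotype control and 78.8, 57.6 and 50.2 with DTA-1. DTA-1 replicates 2 and 3 were well below the isotype control libraries, and DTA-1 replicate 1 was within their range. The log2 fold change of Epcam was −0.39 (SE 0.14, 95% interval −0.70 to −0.09, unadjusted p = 0.0166, adjusted p = 0.632 by edgeR). In the 5-library fit it fell by 0.60 on the log2 scale (SE 0.09, 95% interval −0.80 to −0.39, edgeR adjusted p = 0.0122), 1.51-fold and just past the limit. Without DTA-1 replicate 3 the value was −0.26. Over all alternatives the adjusted p of Epcam ranged from 0.0122 to 0.999.

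Epithelial and mesothelial genes were near absent beside Epcam. Of 8 such markers Krt8, Msln and Upk3b had a count of 0 in all libraries, the summed normalized count of the list was 0.961 to 2.04 CPM with isotype control and 1.41 to 2.70 with DTA-1, and Krt18 had 0.509, 0.456 and 1.36 CPM with isotype control and 0.453, 0 and 1.04 with DTA-1. The Epcam level was thus many times the sum of all 8 epithelial and mesothelial markers in each library. Among other cell types, the B cell genes Ms4a1 and Pax5 and the neutrophil genes S100a8, S100a9 and Retnlg were at 0 in all libraries. The summed level of 5 B cell markers, nearly all from Cd79b, was 16.6 to 17.3 CPM with isotype control and 17.2 to 18.2 with DTA-1, and that of 5 neutrophil markers was at most 0.769. Pecam1, the 1 tested gene of 6 endothelial markers, had 24.4, 18.4 and 22.2 CPM with isotype control and 18.3, 10.4 and 10.8 with DTA-1. It fell by 1.03 on the log2 scale in the 5-library fit (edgeR adjusted p = 0.0132). The other 5 were under 1 CPM in every library, with 2 of them at 0 throughout. Among these 5, Kdr, Tek and Vwf had counts only in DTA-1 libraries. The summed level of 8 macrophage markers was 6.44 to 12.2 CPM with isotype control and 8.67 to 11.8 with DTA-1. The part of such cells in the levels of the members was not tested.

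**Figure D2:**
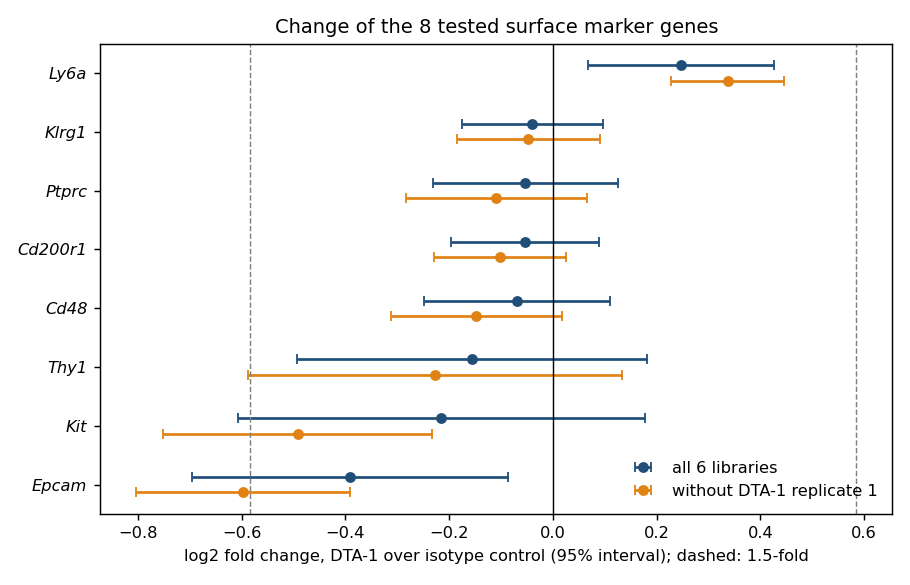
Log2 fold change of DTA-1 over isotype control (horizontal axis) for the 8 tested surface marker genes, with all 6 libraries (blue) and in the 5-library fit that leaves out DTA-1 replicate 1 (orange). Points are edgeR estimates, bars are 95% intervals and dashed lines mark 1.5-fold. With all libraries the intervals of Ly6a (0.07 to 0.43) and Epcam (−0.70 to −0.09) leave out 0, and in the 5-library fit so does that of Kit (−0.75 to −0.23).

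Of the partners, relatives and pathway genes of the members, 112 genes were listed in 9 lists and 73 were tested. Of these 30 were higher and 43 lower with DTA-1, with a median log2 fold change of −0.03, and 0 passed the edgeR test. An unadjusted p under 0.05 was reached by 6 of the 73, beside 7.22% of all genes tested. Of 75 tested in the 5-library fit 1 was called, beside 0.744% of all genes tested in that fit. The 10 binding partners of the members included 7 that were tested, 5 higher and 2 lower, with a median log2 fold change of 0.09. The most abundant of them was Lgals1, which encodes galectin-1, a lectin that binds CD45 among other glycoproteins, at 1651 ± 102 CPM with isotype control and 1752 ± 168 with DTA-1 (SD, n = 3 each).

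**Figure D3:**
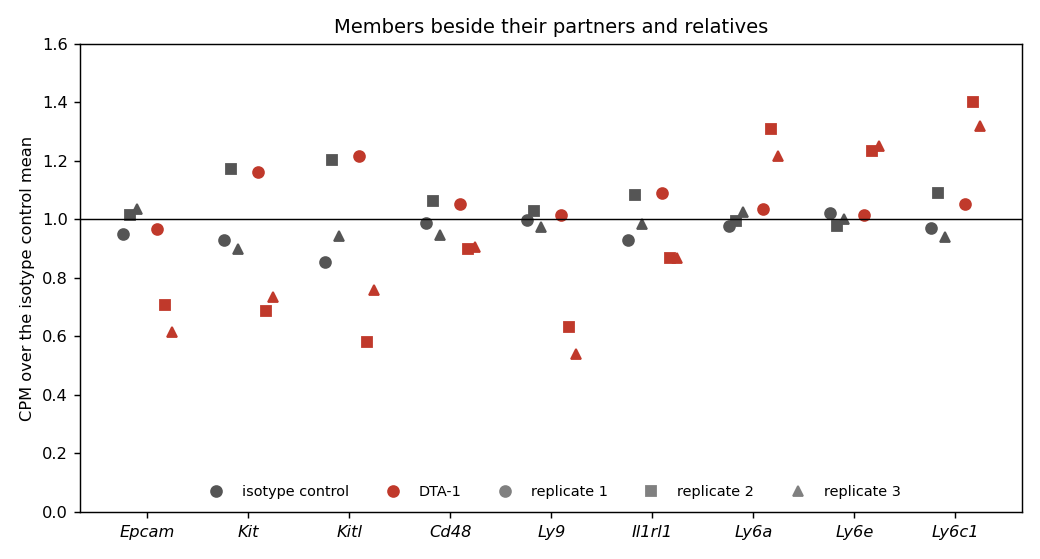
Normalized counts of Epcam, Kit, Cd48 and Ly6a and of some related genes in each library, divided by the mean of the 3 isotype control libraries (vertical axis, a ratio from 0, line at 1). Other relatives are not drawn. Among those, the SLAM receptor gene Cd84 lay at 1.02, 0.969 and 0.968 in DTA-1 replicates 1, 2 and 3. Ly6i, a relative of Ly6a under 1 CPM in every library, had a log2 fold change of −0.80. Circles, squares and triangles are replicates 1, 2 and 3, grey for isotype control and red for DTA-1. The red squares and triangles lie at 0.706 and 0.616 for Epcam, 0.631 and 0.540 for Ly9 and 1.31 and 1.22 for Ly6a, whereas the red circles of these 3 genes lie at 0.966, 1.01 and 1.03.

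Levels of different genes were compared per kilobase of the principal transcript, as normalized counts divided by its length in isotype control. Ly6a was highest with 3628 ± 87.0 (SD, n = 3), the sixth of 11764 tested genes with a length. Klrg1 followed with 418 ± 14.0, then Cd200r1 with 232 ± 6.85 and Ptprc with 151 ± 14.6. Cd48 had 103 ± 6.00, Epcam 40.0 ± 1.77, Kit 21.1 ± 3.19 and Thy1 6.56 ± 0.188, and Cd5 was last with 0.119 ± 0.0438. No pair of neighbours in this order overlapped between their isotype control libraries, the smallest step being 1.46-fold from Ptprc to Cd48. The place of Ptprc depended on the length used. With the length of all annotated exons together Ptprc had 38.7 and Cd48 at 103 passed above it, close to Epcam at 37.2, while the order of the others did not change.

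**Figure D4:**
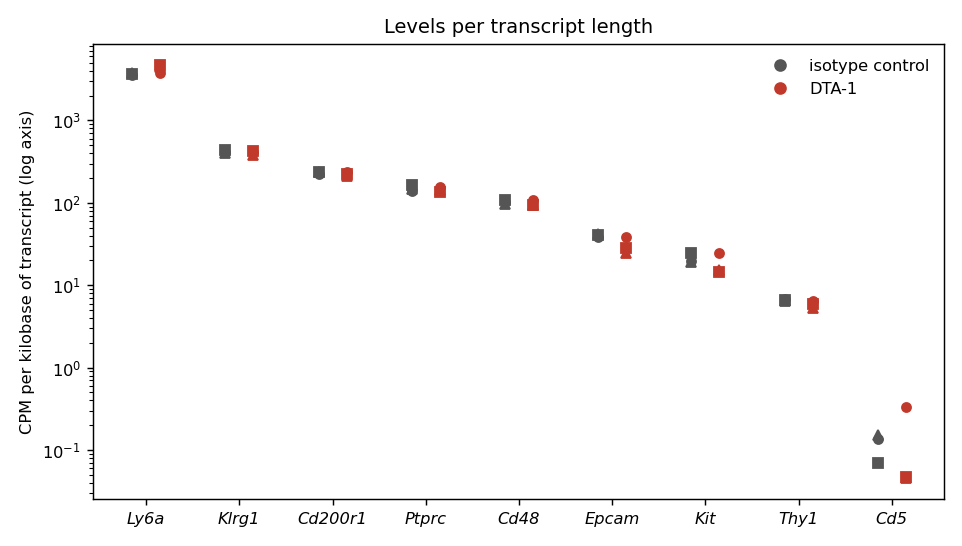
Normalized counts per kilobase of the principal transcript (CPM per kilobase, log axis) of the 9 surface marker genes, grey for isotype control and red for DTA-1, with circles, squares and triangles for replicates 1, 2 and 3. The levels run from 3628 for Ly6a to 0.119 for Cd5 in isotype control, and the steps between genes are larger than the differences between the groups, apart from the few counts of Cd5.

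The pattern of a gene over the 6 libraries was set beside those of 8723 tested genes with a mean of at least 10 normalized counts, by Pearson's r of log2 values. This is a description over 6 libraries that all genes share, and such values are reached by many genes. Kit was most like Lztfl1 (r = 0.993), Snhg20 (0.987) and Cd48 (0.986), and Cd48 was in turn most like Kit, Lamp2 (0.977) and Ngly1 (0.974), so that these 2 members followed each other closely over the libraries. Epcam was most like Rchy1 (0.994), Eed (0.993) and Pvt1 (0.991). Ly6a was most like Gm5537 (0.999), Tdg (0.995) and Aplf (0.995). Klrg1 was most like Fam118a (0.986), Neil1 (0.983) and Atg12 (0.98). Thy1 was most like Wdr45 (0.994), Kiz (0.986) and Tpra1 (0.986). Ptprc was most like Pola1 (0.993), Zfp869 (0.987) and Zcchc11 (0.985), and Cd200r1 like Ube2g1 (0.988), Wdr45b (0.985) and Smpdl3a (0.982). Among members, Thy1 and Epcam had r = 0.922 and Cd200r1 and Epcam 0.905, while Ly6a ran against Epcam with r = −0.89 and against Kit with −0.84. Genes with r over 0.9 numbered 391 for Ly6a and 36 for Klrg1 among those compared.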

How the data were processed

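Per the labels, RNA of sorted ILC2s was sequenced in 3 isotype control and 3 DTA-1 libraries. The authors deposited expected counts, estimated reads per gene without normalization, 79.7% of them whole numbers. The submitters' processing notes name bcl2fastq 2.17.1.14, STAR 2.5.3a, Partek and mm10, with no roles, and strand handling is not given in the sources used here. Total counts per library stand in the report.

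Expected counts were rounded and fitted by edgeR's robust quasi-likelihood F test after filterByExpr and TMM (edgeR 4.0.16 in R 4.3.3, common dispersion 0.0256) on all 6 libraries, with Benjamini-Hochberg adjustment over 14361 genes. A gene was called at an adjusted p under 0.05 and 1.5-fold. A permutation test on 3 against 3 libraries cannot go below p = 0.1 and was not run. Intervals are at 95%. limma 3.58.1 and DESeq2 1.42.0 served as alternatives, with other scalings, filters, the replicate block and each library left out. Coordinates are mm10, compared with GENCODE release 21. Tables and plots used Python 3.11.15, pandas 2.3.3, numpy 2.4.6 and matplotlib 3.10.9. Procedures were tested on simulated data.

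All members were named. Of each pathway and sort gate list the called genes, the 2 with the smallest p and the 2 with the highest mean were named, and for likeness the 3 genes with the highest r. Genes of the cell type marker lists were named after their values were seen. Members, lists and tests were chosen with earlier results of these data known. Surface protein was not measured here.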

Additional observations from a re-analysis of the deposited data

How the results depend on the processing

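With all 6 libraries edgeR called 0 of 14361 genes. DESeq2's Wald test called 25, a filter of only 1 count in the 6 libraries called 2, and an unadjusted p with the 1.5-fold limit called 337. Leaving out 1 library gave 0 to 111 genes, 0 to 1 surface marker genes and 0 to 1 genes of the related lists, and in each case the highest came from dropping the library labelled DTA-1 replicate 1, where Epcam and Ly9 were the called genes. The cause was not tested. The direction of each of the 8 tested members was the same under every alternative run, except Ptprc, for which leaving out single libraries gave log2 values of −0.113 (isotype control replicate 1 out) to 0.0232 (isotype control replicate 2 out). Scaling by total counts moved the median of all genes by −0.04 on the log2 scale.

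With the replicate number as a block 1 gene was called, and no member. Deviations from the group means of libraries with the same number had correlations of −0.0069, −0.00285 and 0.0152. For libraries with different numbers they were −0.0145 to 0.0161. All tested genes entered alike, those with few counts included, so these values cannot decide whether libraries were paired. No pairing is stated, and the numbers were not taken as pairs.

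With 3 libraries a group, the 95% intervals of Kit and Epcam reach past 1.5-fold lower, so these data allow a change of that size as well as smaller ones in both genes, and Cd5 was too low to be tested.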
